A study of Arabidopsis thaliana with 6 samples.

Results

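Papain-like cysteine proteases are enzymes that cut proteins with a catalytic cysteine. They are made as inactive precursors, and in plants most of them pass through the secretory pathway to the vacuole or the cell wall. The genes described here are 9 of the 44200 features of the count table: the tandem pair AT4G11310 and AT4G11320, RD21A (AT1G47128), RD21B (AT5G43060), RD19 (AT4G39090), AALP (AT5G60360), SAG12 (AT5G45890), XCP1 (AT4G35350) and XCP2 (AT1G20850). AT4G11320 was chosen by its lower counts in the genotype contrast reported here, so its difference is given as a description with no test, and the other 8 genes are named relatives of it. The 9 were read against a list of 31 genes of the same family in Arabidopsis thaliana, of which they are part.

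The libraries were made from polyadenylated RNA of whole plantlets, with 3 labelled nsra/b, a double mutant in which each of the NSR genes carries a T-DNA (background Col-0), and 3 labelled Col-0, the wild type. NSRs are nuclear speckle RNA-binding proteins that act on alternative splicing. All plantlets were moved to a mock medium at 14 days and collected at 15 days, after 24 h, so no library here was treated with auxin. Each mutation is represented by 1 insertion allele, and the study calls the 3 samples of each genotype biological replicates. For 2 libraries of a genotype, the chi-square over its degrees of freedom, which is 1 under counting error alone, was 1.37 to 1.93. For 2 libraries of different genotypes it was 5.19 to 6.04. The standard errors and p-values below rest on this small spread between the samples of a genotype.

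Library totals lay between 25936176 and 32578330 counts. AT1G76940, taken here as NSRa from general knowledge since the labels give no identifier, had 4987, 5898 and 5577 counts in the libraries labelled nsra/b, against 396, 519 and 441 counts in those labelled Col-0. AT1G21320, taken as NSRb in the same way, had 81, 78 and 88 counts in the libraries labelled nsra/b, against 17, 25 and 25 counts in those labelled Col-0. The counts of both genes were thus higher in the libraries labelled as mutant. A count over a whole gene does not separate reads on either side of an insertion, so these values do not check the labels. An exchange of labels was not tested, and each direction below rests on the labels as given. In whole plantlets, fewer cells of a type and less RNA per cell cannot be told apart.

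The members share the catalytic cysteine, and the coding bases around it show how close they are to one another. Each line gives 51 spliced coding bases from the TAIR10.1 genome, with the codon of the catalytic cysteine in capitals.
AT4G11310: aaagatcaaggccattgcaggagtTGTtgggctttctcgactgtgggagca
AT4G11320: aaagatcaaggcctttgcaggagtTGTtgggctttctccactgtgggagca
RD21A: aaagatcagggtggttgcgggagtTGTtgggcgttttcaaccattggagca
RD21B: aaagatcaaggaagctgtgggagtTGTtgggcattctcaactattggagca
RD19: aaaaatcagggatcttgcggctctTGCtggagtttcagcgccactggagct
AALP: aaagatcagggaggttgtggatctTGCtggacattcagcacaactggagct
SAG12: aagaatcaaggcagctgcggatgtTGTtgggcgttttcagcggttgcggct
XCP1: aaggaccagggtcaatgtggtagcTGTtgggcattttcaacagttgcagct
XCP2: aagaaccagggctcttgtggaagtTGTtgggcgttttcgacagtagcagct
The cysteine was residue 154 of the encoded protein in SAG12, residue 168 in AT4G11320 and between these in the other 7. In all 9 genes an intron split this stretch, between coding exons 4 and 5 in AALP and between coding exons 1 and 2 in the others. The codon placed 2 before the cysteine encoded arginine in AT4G11310 and AT4G11320 and glycine in the other 7 members. Among the 31 listed genes it encoded glycine in 28, arginine in these 2 and asparagine in 1.

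The tandem pair is shown over a longer stretch, since reads of such close copies can be hard to place. Each line gives 123 spliced coding bases around the same codon, with the 7 bases that differ in capitals.
AT4G11310: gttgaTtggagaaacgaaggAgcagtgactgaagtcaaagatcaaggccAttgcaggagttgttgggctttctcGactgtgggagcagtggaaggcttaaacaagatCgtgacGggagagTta
AT4G11320: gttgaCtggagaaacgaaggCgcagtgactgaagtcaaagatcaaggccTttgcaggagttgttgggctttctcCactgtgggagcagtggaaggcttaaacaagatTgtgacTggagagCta
AT4G11310 lies on chromosome 4 at 6883513 to 6885517 and AT4G11320 at 6887166 to 6889879, both on the plus strand, with 1648 bases between them. With the intron that splits it, the printed stretch spans 6884014 to 6884588 in AT4G11310 and 6887777 to 6888038 in AT4G11320. Their coding sequences shared 997 of 1095 aligned bases (91.1%) and their proteins 328 of 364 aligned residues (90.1%). The longest run of identical coding bases was 63, shorter than the read length of 100 nt in the sample records. No window of 100 bases within an exon of any of the 9 members was found elsewhere in the genome, and at 50 bases 14 windows were shared by the pair and none by another member. The other close pairs were further apart, with 78.9% of aligned coding bases identical between RD21A and RD21B and 73.0% between XCP1 and XCP2.

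AT4G11320, annotated as a papain family cysteine protease, had the largest decrease in the libraries labelled nsra/b of the 1730 tested features with a mean of at least 100 CPM (counts scaled to a library of 1000000). Features under that cut had larger decreases, so this place holds only above it, and the gene was chosen by its decrease. It had 444, 463 and 466 CPM in the libraries labelled nsra/b, against 751, 742 and 767 CPM in those labelled Col-0. The means were 457 ± 12.0 CPM in nsra/b and 753 ± 13.0 CPM in Col-0 (SD, n = 3 each), with the libraries labelled nsra/b below those labelled Col-0, as the choice of the gene fixed. The mean in nsra/b was 60.7% of that in Col-0, a log2 fold change of -0.72. Between 11539 and 14225 counts in nsra/b and between 20203 and 24070 counts in Col-0 stood behind these values.

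AT4G11310, the tandem copy, was close to absent. It had 5, 10 and 9 counts in the libraries labelled nsra/b, against 9, 5 and 13 counts in those labelled Col-0, and the genotypes overlapped. These counts were too low for the filter, so the gene was not tested. In the libraries labelled nsra/b, the copy took 0.0433%, 0.0702% and 0.0644% of the counts of the pair, against 0.0445%, 0.0208% and 0.0558% in those labelled Col-0. The exact 95% Clopper-Pearson intervals of these shares, which cover counting error only, ran from 0.0141% to 0.129% in nsra/b and from 0.00674% to 0.0954% in Col-0 and overlapped. So nearly all reads of the pair were counted on AT4G11320 in either genotype. Summing the pair into 1 feature left the log2 fold change at -0.72, which the few counts of AT4G11310 could not have moved. The sum is thus no check on read placement.

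**Figure D1:**
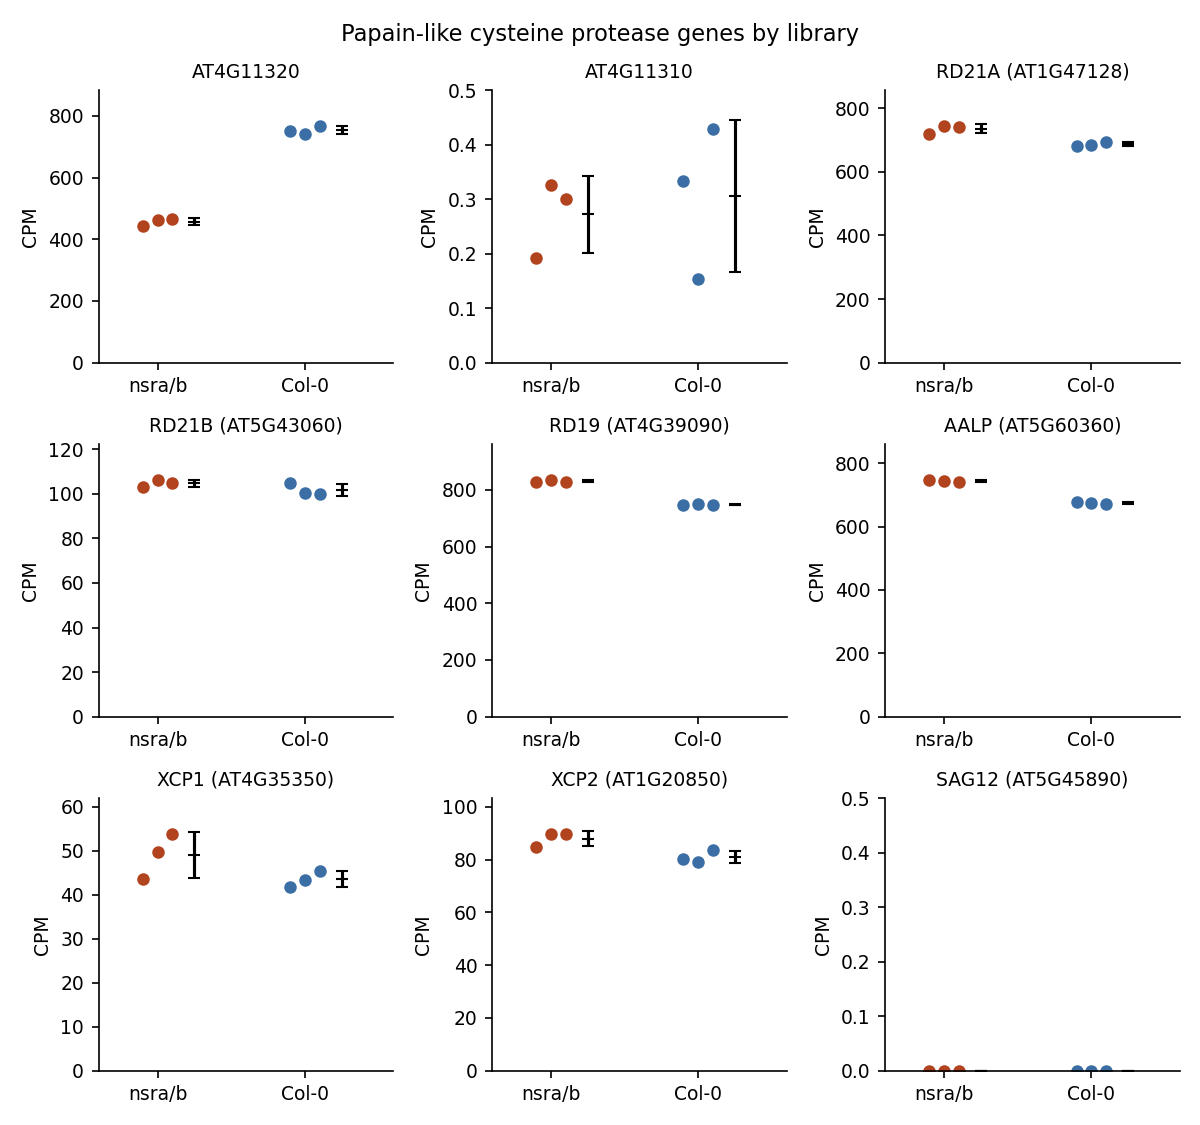
CPM of the 9 genes in each library, nsra/b in orange and Col-0 in blue, with a bar at the mean ± SD of 3 libraries; each vertical axis starts at 0 and has its own range. AT4G11320 is at 444 to 466 CPM in nsra/b and 742 to 767 CPM in Col-0, SAG12 is at 0 in all 6 libraries, and AT4G11310 is under 0.5 CPM in all 6.

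Of the other members, RD19, AALP, RD21A and XCP2 were slightly higher in the libraries labelled nsra/b. By the edgeR quasi-likelihood test across 21606 features at an adjusted p-value under 0.01, they were 4 of the 6 members that were tested besides AT4G11320. Over all tested features, 5.28% were called higher, 3.58% lower and 8.86% in either direction, and of the 5142 features with at least 40 CPM, as all 6 had, 8.52% were called higher. The count of 4 was 2 when nsra/b replicate 2, nsra/b replicate 3, Col-0 replicate 1 or Col-0 replicate 2 was left out. The levels of these 4 did not overlap between the genotypes and those of RD21B and XCP1 did, where 30.0% of all tested features and 42.4% of those with at least 40 CPM did not overlap.

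RD19, a vacuolar protease first described as responsive to dehydration (chromosome 4, 18215542 to 18217616, minus strand), had the highest CPM of the 9 in the libraries labelled nsra/b. It was at 828, 835 and 828 CPM in the libraries labelled nsra/b, against 746, 749 and 746 CPM in those labelled Col-0. The libraries of a genotype differed by under 10 CPM and the genotypes did not overlap. The log2 fold change was 0.15 ± 0.022 (SE; edgeR adjusted p = 3.06e-06), a 1.11-fold higher mean.

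AALP, the Arabidopsis aleurain-like protease of the vacuole (chromosome 5, 24279660 to 24282482, plus strand), showed a difference of similar size. It was at 747, 743 and 740 CPM in the libraries labelled nsra/b, against 679, 676 and 673 CPM in those labelled Col-0. Each library labelled nsra/b was above each labelled Col-0, with a log2 fold change of 0.14 ± 0.022 (SE; edgeR adjusted p = 1.80e-05).

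RD21A and its close relative RD21B are proteases with a granulin domain at the C terminus. RD21A lies on chromosome 1 at 17282749 to 17285749 and RD21B on chromosome 5 at 17269310 to 17272298, both on the minus strand. Their coding sequences held 462 and 463 codons, against 346 to 371 codons in the other 7. RD21A was at 719, 744 and 742 CPM in the libraries labelled nsra/b, against 683, 686 and 693 CPM in those labelled Col-0. The genotypes did not overlap, and the log2 fold change was 0.098 ± 0.022 (SE; edgeR adjusted p = 0.00216). This call was lost without nsra/b replicate 2 (edgeR adjusted p = 0.0149), nsra/b replicate 3 (0.0119), Col-0 replicate 1 (0.0126) or Col-0 replicate 2 (0.0201).

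RD21B was expressed well below RD21A. It was at 103, 106 and 105 CPM in the libraries labelled nsra/b, against 105, 100 and 99.97 CPM in those labelled Col-0, and the genotypes overlapped. The log2 fold change was 0.044 with a 95% interval from -0.013 to 0.10 (edgeR adjusted p = 0.353), so a difference the size of that of RD21A lay inside the interval. Whether the difference of RD21A differed from that of RD21B was not tested.

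XCP1 and XCP2 are the proteases of xylem tracheary elements, where they take part in the clearing of the cell contents. XCP1 lies on chromosome 4 at 16810482 to 16812077 and XCP2 on chromosome 1 at 7252111 to 7253747, both on the plus strand. XCP2 was at 84.7, 89.6 and 89.7 CPM in the libraries labelled nsra/b, against 80.4, 79.0 and 83.6 CPM in those labelled Col-0. The groups were separated by only 1 narrow gap, between nsra/b replicate 1 and Col-0 replicate 3, and the log2 fold change was 0.12 ± 0.031 (SE; edgeR adjusted p = 0.00683). The call was lost with DESeq2 (adjusted p = 0.0463) and without nsra/b replicate 2 (edgeR adjusted p = 0.0418), nsra/b replicate 3 (0.0374), Col-0 replicate 1 (0.0326) or Col-0 replicate 2 (0.0659).

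XCP1 was at 43.5, 49.6 and 53.8 CPM in the libraries labelled nsra/b, against 41.8, 43.4 and 45.5 CPM in those labelled Col-0. It had the widest spread of the tested members, with a coefficient of variation of 10.5% in nsra/b and 4.17% in Col-0, and the genotypes overlapped. The log2 fold change was 0.17 ± 0.048 (SE), and the gene was not called (edgeR adjusted p = 0.0112). It was called in edgeR with library size only (adjusted p = 0.00868) and with no filter (0.000217). Without nsra/b replicate 1, the lowest of its genotype, the log2 fold change was 0.25 (edgeR adjusted p = 1.02e-05), and without nsra/b replicate 3, the highest, the log2 fold change was 0.10 (edgeR adjusted p = 0.168). XCP1 overlaps its neighbour AT4G35360 by 2 bases on the opposite strand, and the counts were made by strand.

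SAG12, a widely used marker of leaf senescence (chromosome 5, 18613239 to 18614963, plus strand), had 0 counts in all 6 libraries. A count of 0 allows up to 3 counts, which came to between 0.0976 and 0.115 CPM in the libraries labelled nsra/b and between 0.0925 and 0.111 CPM in those labelled Col-0. No difference can be given for it.

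**Figure D2:**
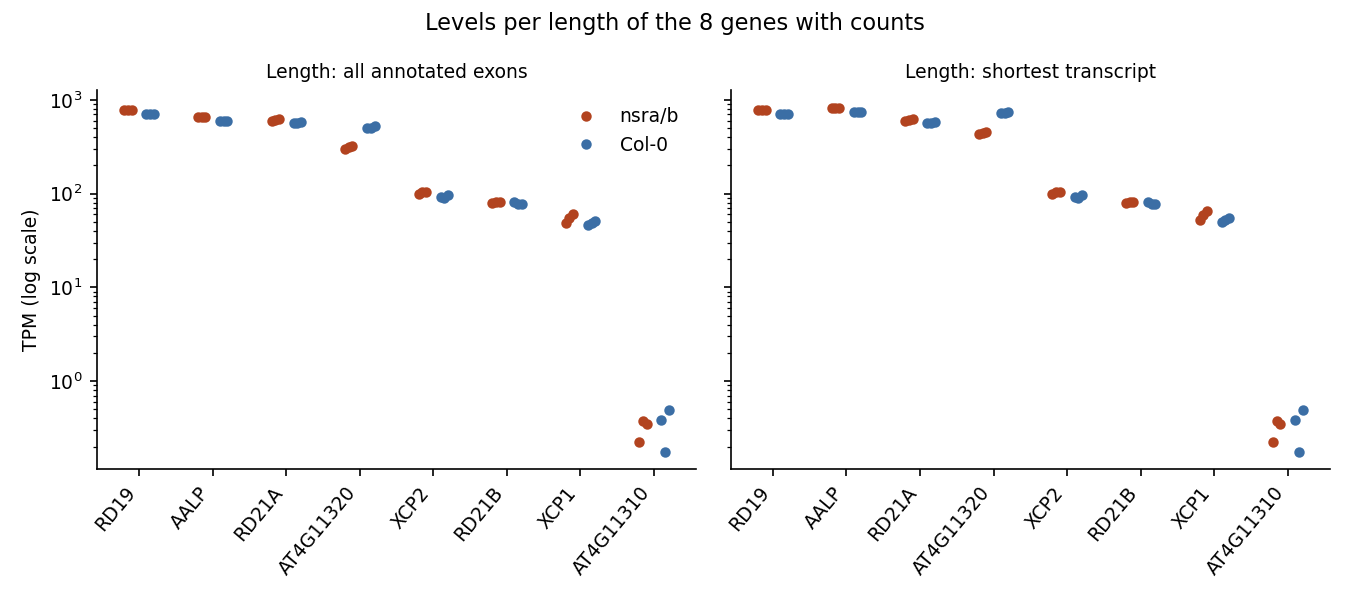
TPM on a log scale for the 8 members with counts, nsra/b in orange left of Col-0 in blue, 1 point per library; the left panel divides by the length of all annotated exons and the right panel by that of the shortest annotated transcript. AT4G11320 is at 312 TPM in nsra/b and 511 TPM in Col-0 on the left, and at 447 TPM in nsra/b and 731 TPM in Col-0 on the right.

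To compare levels between genes, counts were divided by exon length and scaled to a sum of 1000000 in each library (TPM). In the libraries labelled nsra/b, the order was RD19 (787 ± 0.50 TPM), AALP (660 ± 4.87), RD21A (611 ± 10.6), AT4G11320 (312 ± 7.88), XCP2 (102 ± 3.16), RD21B (81.5 ± 0.94), XCP1 (55.2 ± 5.84) and AT4G11310 (0.316 ± 0.081 TPM, SD, n = 3 each). In the libraries labelled Col-0 the order was the same, with RD19 at 704 ± 4.14 TPM, AALP at 597 ± 1.62, RD21A at 568 ± 8.36, AT4G11320 at 511 ± 12.0, XCP2 at 93.2 ± 3.30, RD21B at 78.7 ± 1.83, XCP1 at 48.9 ± 2.37 and AT4G11310 at 0.353 ± 0.162 TPM. No neighbours in either order overlapped between their libraries. What changed was the distance of AT4G11320 from RD21A: its TPM level was 0.511 of that of RD21A in nsra/b and 0.900 of it in Col-0.

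The place of AT4G11320 depended on the length used, since its 2 annotated transcripts cover 2338 bases of exon together and 1632 bases in the shorter one. With the shortest transcript of each gene, a choice made after the data were seen, AT4G11320 had 434, 449 and 456 TPM in the libraries labelled nsra/b, against 725, 718 and 751 TPM in those labelled Col-0. In Col-0 it then stood above RD19, which had 700, 704 and 708 TPM, and overlapped AALP, at 741, 740 and 744 TPM. In nsra/b it stayed below RD21A, at 599, 614 and 619 TPM. Which transcript the reads came from was not analysed here.

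**Figure D3:**
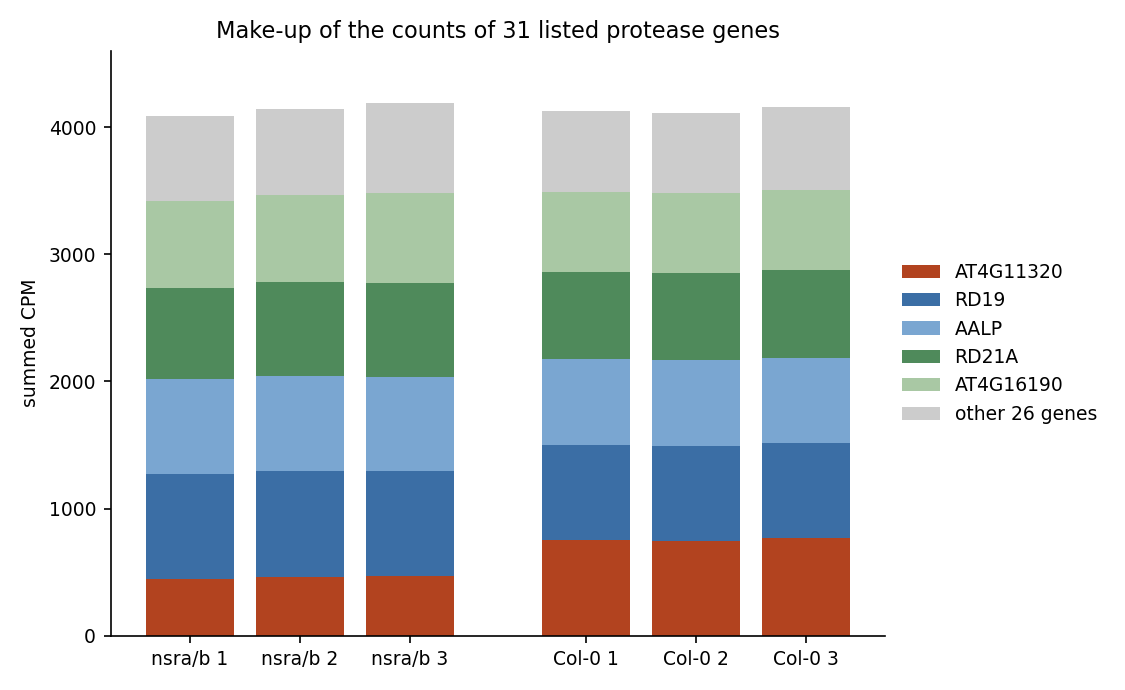
Summed CPM of the 31 listed protease genes in each library, nsra/b left and Col-0 right, split into the 5 genes with the most counts and the other 26. The columns have nearly the same height, and AT4G11320 takes 11.0 ± 0.17% of them in nsra/b and 18.2 ± 0.22% in Col-0.

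None of the 23 tested genes of the 31, AT4G11320 set aside, was called lower in nsra/b by edgeR, DESeq2 or limma voom. Over all tested features, 3.58% were called lower by edgeR. None of these genes had a lower level at an unadjusted edgeR p-value under 0.05 either. No share of all tested features at that unadjusted threshold is given here, so this count has no background beside it. A listed gene with too few counts for a test had 0 counts in each library labelled nsra/b and 2, 3 and 3 in those labelled Col-0. The family sum was 4140 ± 50.1 CPM in nsra/b and 4131 ± 22.4 CPM in Col-0 (SD, n = 3 each), so it differed by less than the spread between libraries. Without AT4G11320 the sum was 3683 ± 39.1 CPM in nsra/b and 3378 ± 9.44 CPM in Col-0, and the libraries did not overlap. Its largest parts in nsra/b were RD19 (mean 830 CPM), AALP (743), RD21A (735) and AT4G16190 (689). In Col-0 these genes were at 747, 676, 687 and 630 CPM, in the same order. AT4G11320 took 10.9%, 11.2% and 11.1% of the family counts in the libraries labelled nsra/b, against 18.2%, 18.0% and 18.5% in those labelled Col-0.

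Of the 31 genes, 23 were tested and 8 were called higher: RD19, AALP, RD21A, XCP2 and 4 genes outside the 9. AT2G27420, annotated as a cysteine proteinase superfamily protein, had the largest difference of these, with 200, 197 and 223 counts in the libraries labelled nsra/b, against 99, 156 and 127 counts in those labelled Col-0, a log2 fold change of 0.75 ± 0.10 (SE; edgeR adjusted p = 1.85e-06). CEP3, a protease of the group with an endoplasmic reticulum retention signal, had a log2 fold change of 0.20, AT4G01610 of the cathepsin B type one of 0.15, and AT4G16190, a relative of RD19, one of 0.13. The other 14 tested genes besides AT4G11320 were not called. Outside the 9 members, 4 of 16 tested genes were thus called higher, where 5.28% of all tested features were. Among features with at least 40 CPM, 8.52% were called higher. Of the 4, AT4G16190 and AT4G01610 were above 40 CPM, and AT2G27420 and CEP3 were below it. The family count of 8 was 5 without nsra/b replicate 3 and 5 without Col-0 replicate 2.

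**Figure D4:**
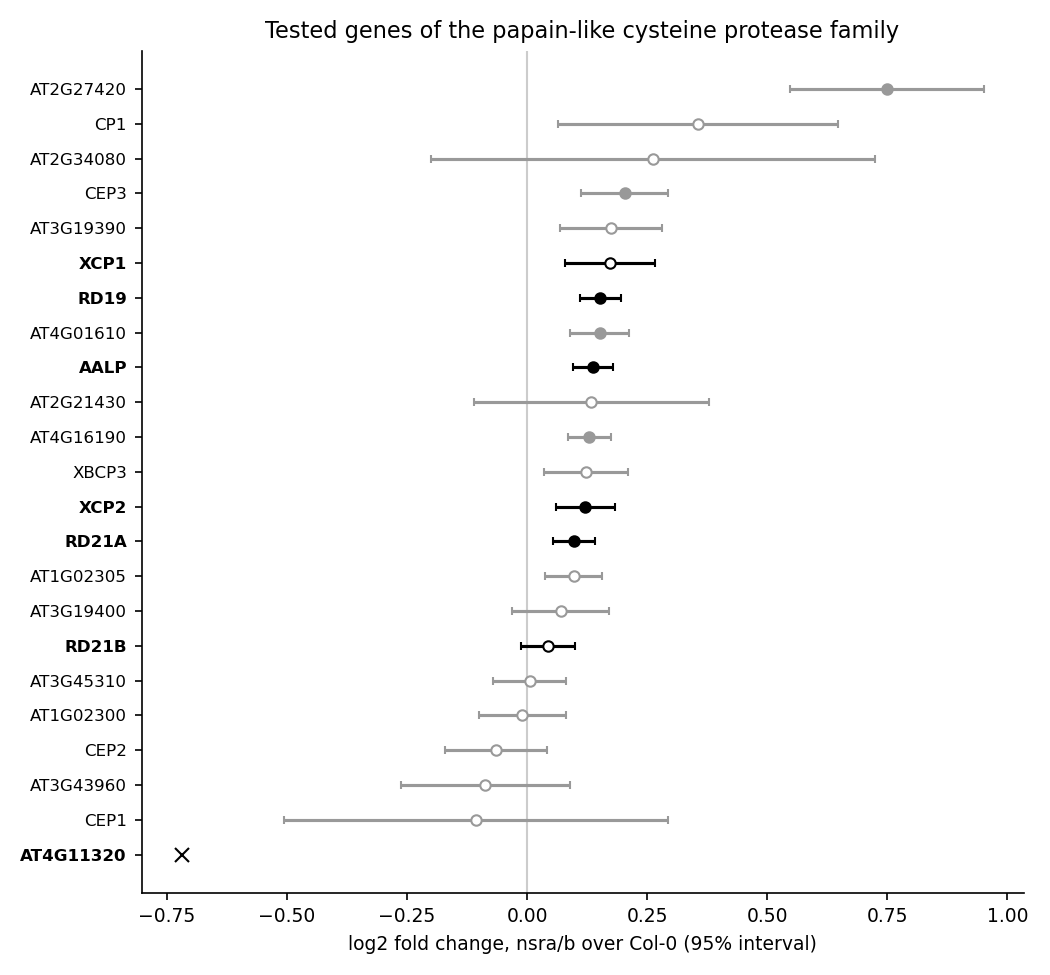
Log2 fold change, nsra/b over Col-0, of the 23 tested genes of the family, with 95% intervals; the 7 tested members are in black with bold names and other genes in grey, and filled points were called at an edgeR adjusted p-value under 0.01. AT4G11320, picked for its fall, is the cross at -0.72, drawn as a value with no interval or call, and the called points lie between 0.098 for RD21A and 0.75 for AT2G27420.

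Proteases of this family are held in check by cystatins, matured in the vacuole with the help of vacuolar processing enzymes, and carried there by vacuolar sorting receptors. None of the 7 cystatins, 3 vacuolar processing enzymes, 6 vacuolar sorting receptors and 2 other inhibitors and chaperones tested was called in either direction by edgeR, DESeq2 or limma voom, where 8.86% of all tested features were by edgeR. With edgeR, 1 cystatin was called higher without nsra/b replicate 1, and 1 vacuolar processing enzyme without Col-0 replicate 3. At an unadjusted edgeR p-value under 0.05 there were 3 cystatins (2 higher, 1 lower), 1 vacuolar processing enzyme, 1 vacuolar sorting receptor and 0 of the last list. The share of all tested features at this unadjusted threshold is not given here. The most abundant were CYSB, an inhibitor at 92.8 CPM in nsra/b and 87.4 CPM in Col-0, GAMMA-VPE, a processing enzyme at 222 CPM in nsra/b and 215 CPM in Col-0, and VSR1, a sorting receptor at 142 CPM in nsra/b and 141 CPM in Col-0. PDIL1-1, a protein disulfide isomerase that attends such proteases on their way to the vacuole, was at 133 CPM in nsra/b and 135 CPM in Col-0. At an adjusted p-value under 0.05 by edgeR, the cystatin AT5G05110 (log2 fold change 0.14) and BETA-VPE (0.27), both named after their values were seen, were higher.

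Markers of the tissues and processes that the members are known for were read beside them. Of 15 xylem genes, 3 were called higher by edgeR, beside 5.28% of all tested features: the secondary wall cellulose synthase IRX1 (log2 fold change 0.19) and the laccases LAC17 (0.19) and IRX12 (0.16). The summed level of the 15 ranged from 231 to 241 CPM in the libraries labelled nsra/b, against 211 to 217 CPM in those labelled Col-0, and their median log2 fold change was 0.16, beside 0.17 for XCP1 and 0.12 for XCP2. No xylem gene was called lower by edgeR, DESeq2 or limma voom, and at an unadjusted edgeR p-value under 0.05 there were 10 higher and 0 lower. The share of all tested features at that unadjusted threshold is not given here, so these 2 counts have no background beside them. The count of 3 higher was 6 at an adjusted p-value under 0.05, 0 with DESeq2, 0 without nsra/b replicate 2, nsra/b replicate 3 or Col-0 replicate 1, and 1 without Col-0 replicate 2 or 3. The part of xylem content in the values of XCP1 and XCP2 was not tested.

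Of 10 desiccation genes, the class in which RD19 and RD21 were first described, 5 were called higher: LTI65 (log2 fold change 0.91), RAB18 (0.77), RD20 (0.38), LTI78 (0.34) and RD22 (0.24), where 5.28% of all tested features were. The sum of all 10 listed genes ranged from 1554 to 1619 CPM in the libraries labelled nsra/b, against 1392 to 1432 CPM in those labelled Col-0. The log2 fold changes of RD19 (0.15) and RD21A (0.098) were smaller than any of these 5, and RD21B was not called. The 5 listed genes that were not called lay between -0.0048 and 0.14, so RD19 and RD21A fell within the range of the list. No desiccation gene was called lower by edgeR, DESeq2 or limma voom, and at an unadjusted edgeR p-value under 0.05 there were 7 higher and 0 lower. For that unadjusted threshold, the share of all tested features is not given here.

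Of 14 senescence genes other than SAG12, 2 were called higher, the phosphatase HAI1 (log2 fold change 0.61) and the chlorophyll b reductase NYC1 (0.12), and 2 were called lower, SEN1 (-0.43) and XTH24 (-0.29), where 5.28% of all tested features were called higher and 3.58% lower. The senescence count of 2 higher was 1 with DESeq2 and without nsra/b replicate 3 or Col-0 replicate 1 or 2. The list thus went in no single direction beside the 0 counts of SAG12.

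Some root and shoot markers also differed between the genotypes. Of 8 root genes, PYK10 (log2 fold change 0.16), PRP3 (0.62) and CASP1 (0.31) were called higher, beside 5.28% of all tested features. All 8 together summed to 4461 to 4843 CPM in the libraries labelled nsra/b, against 4092 to 4276 CPM in those labelled Col-0, and most of it was PYK10, with means of 4540 CPM in nsra/b and 4066 CPM in Col-0. Of 8 shoot genes, the chlorophyll-binding protein genes CAB1 (-0.21), CAB2 (-0.17), CAB3 (-0.23) and LHB1B1 (-0.29) were called lower, beside 3.58% of all tested features, and the 4 small subunit genes of Rubisco were not called. All 8 together summed to 41748 to 43063 CPM in the libraries labelled nsra/b, against 45232 to 47963 CPM in those labelled Col-0. CAB1, CAB2 and CAB3 lie together on chromosome 1. Whether their reads can be told apart was not checked, so they may not be separate markers. The part of root and shoot content in the values of the proteases was not tested.

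The 5 tested features nearest to AT4G11320 in their pattern were found by the distance between log2 CPM over the 6 libraries, each centred on its own mean. They were AT5G17530 of the phosphoglucosamine mutase family (distance 0.080), PI (AT5G20240), a MADS-box floral regulator (0.14), AT1G10610, a basic helix-loop-helix protein (0.14), AT1G23160 of the GH3 family (0.16) and AT1G20530 (0.19). AT5G17530 was at 26.3, 25.8 and 26.5 CPM in the libraries labelled nsra/b, against 44.5, 43.3 and 44.0 CPM in those labelled Col-0. All 5 had under 50 CPM in every library, and AT1G23160 and AT1G20530 had at most 32 counts in any, so their places in the order rest on few reads. The 9 members were left out of this search, so only the other genes of the list of 31 could appear, and none did. None of those that were tested was called lower, so their absence adds no further result.

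**Figure D5:**
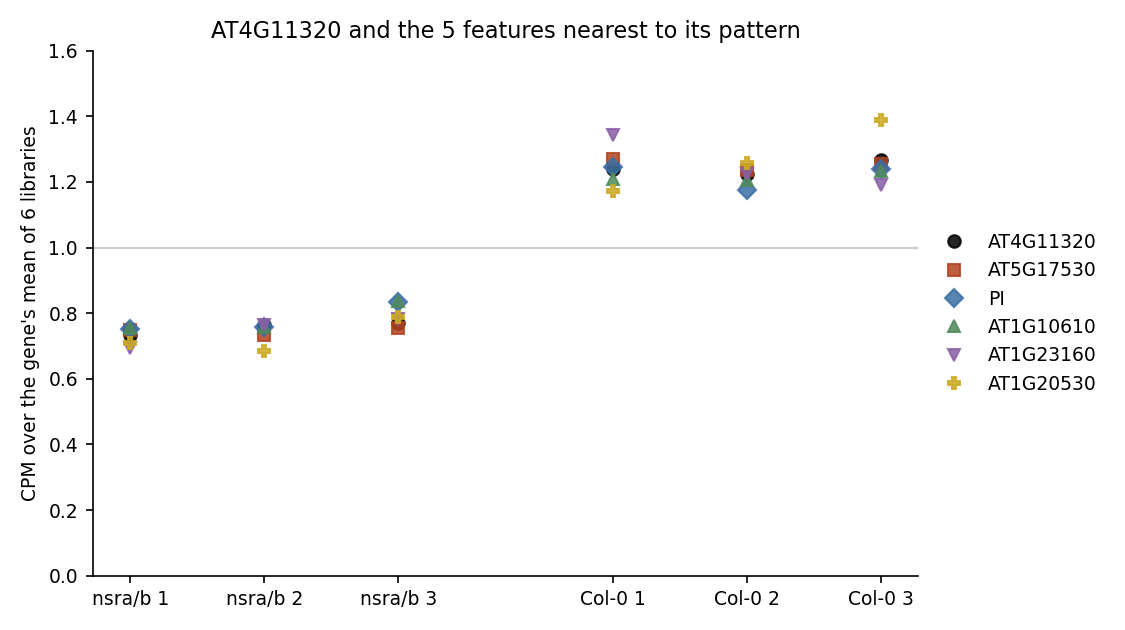
CPM of AT4G11320 and the 5 features nearest to its pattern, each divided by its own mean over the 6 libraries, with nsra/b left and Col-0 right. All 6 lie below 1 in the libraries labelled nsra/b and above 1 in those labelled Col-0, which is what the distance selected for.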

How the data were processed

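The authors deposited raw counts per gene. Per the labels and methods, stranded paired-end libraries were aligned with tophat, keeping 1 alignment per read, to TAIR10, and counted by strand (Union mode) on the Araport11 annotation with added de novo loci. The methods differ from the labels in read length and age at transfer, and the labels' values are given here. Counts were tested with edgeR 4.0.16 (TMM, filterByExpr with minimum count 10 and minimum total 15, quasi-likelihood test, genotype only, Benjamini-Hochberg adjustment over 21606 features) in R 4.3.3, after a run on simulated data. Standard errors were obtained by dividing the size of each log2 fold change by the root of its F statistic. DESeq2 1.42.0 and limma voom 3.58.1 were alternatives. CPM were scaled by TMM and the totals of tested features, and a count of 3 was the detection floor. TPM used exon lengths of TAIR10.1, found for 37498 features. The members and lists were chosen with earlier results of these data known. Named were all members, listed genes called at 0.01 (otherwise the 2 with most CPM), and the 2 genes taken as NSRa and NSRb. Also named were the 5 features nearest AT4G11320 with the members left out. NAA-treated and RIP-seq samples were not analysed here.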

Additional observations from a re-analysis of the deposited data

How the results depend on the processing

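The tested members other than AT4G11320 kept the direction of their log2 fold change under each alternative run. RD19 lay between 0.15 and 0.16, AALP between 0.13 and 0.15, RD21A between 0.090 and 0.11 and RD21B between 0.032 and 0.066. XCP1 lay between 0.10 and 0.25 and XCP2 between 0.10 and 0.15. AT4G11320 lay between -0.73 and -0.70, a direction fixed by its choice from these libraries. When a log2 fold change of 1 or more in size was also required, 0 members and 0 genes of the family were called in either direction, and 50 features were called higher and 45 lower. DESeq2 called 657 features higher and 463 lower, with 3 members higher, and an adjusted p-value under 0.05 gave 1833 higher and 1385 lower. Leaving out 1 library at a time gave between 793 and 1109 features higher and between 494 and 750 lower, the lowest counts lower being 494 without Col-0 replicate 1 and 497 without Col-0 replicate 2. It gave between 2 and 5 members higher, with 2 without nsra/b replicate 2, nsra/b replicate 3, Col-0 replicate 1 or Col-0 replicate 2, and between 5 and 10 genes of the family higher. XCP1 was called with library size only (adjusted p = 0.00868), with no filter (0.000217), with the replicate block (0.00114), without nsra/b replicate 1 and at a threshold of 0.05. The level of AT4G11320 relative to RD21A was 0.622 in nsra/b and 1.10 in Col-0 as CPM with no length correction, and 0.732 in nsra/b and 1.29 in Col-0 with the shortest transcript. The replicate block called 2093 features against 1914 without it, with 1904 in both, and 5 members higher. To look for pairing, each gene's genotype mean was subtracted from its log2 CPM. On what remained, same-numbered libraries of the 2 genotypes correlated at -0.012, 0.025 and 0.056, and differently numbered ones at -0.065 to 0.040. The numbers were therefore not taken to pair the libraries. The precision is limited by 3 libraries a genotype and, for AT4G11310 and SAG12, by counts of 13 or fewer.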
